A study of Mus musculus with 5 samples.

Results

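The Gimap genes encode the GTPases of immunity-associated proteins, and 8 of them (Gimap1, Gimap3, Gimap4, Gimap5, Gimap6, Gimap7, Gimap8 and Gimap9), of 21938 protein-coding genes in the annotation, form a single cluster on mouse chromosome 6. The cluster was examined in lists of acetylated histone peaks from ChIPseq of T_M cells, which are CD8+ T cells turned towards a memory type in culture. All peaks were taken that touched the body of one of these genes or the 10 kb on either side of it, in GRCm38 coordinates. The 5 libraries together gave 37 such peaks.

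The paper's differentiation method starts from OT-I cells, CD8+ T cells with a transgenic receptor for an ovalbumin peptide. These were activated with that peptide and then kept in IL-15 to give T_M cells. For the ChIPseq the paper's figure legend names splenic T cells as the source and does not name OT-I. The 2 WT libraries carry the genotype label wildtype, and the 3 TPdh-/- libraries carry the label PDH_Mutant, with Pdha1 (the E1 alpha subunit of the pyruvate dehydrogenase complex, encoded on the X chromosome) deleted by a Cre transgene under the CD4 promoter. Mice were adults of both sexes, and the sources used here do not say whether the WT mice carried floxed alleles or the Cre, nor which animals gave which library. Chromatin was precipitated with an antibody against acetylated lysine of histones, for which a sample label names lysine 18. The comparison of WT with TPdh-/- asks where histone acetylation depends on this complex, a source of the acetyl-CoA that acetylates histones. The 5 lists held 15962 and 8859 peaks in WT replicates 1 and 2, and 4920, 5419 and 9418 in TPdh-/- replicates 1, 2 and 3. WT replicate 1 thus held the most peaks of any list, and several results that follow are given without it. Of 10 T cell markers, 10 and 7 had a peak within 1 kb of a start site in WT replicates 1 and 2, and 5, 6 and 7 had one in TPdh-/- replicates 1, 2 and 3. No library had such a peak at any of 5 B cell markers, 2 CD4 T cell markers, 2 NK cell markers or 5 markers of other tissues, while 1 of 5 myeloid markers (Spi1) had one in every library.

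Gimap proteins share a GTP-binding domain, are made mainly in lymphocytes and sit largely on intracellular membranes, where they bear on whether a T cell survives. Loss of Gimap5 leaves mice and rats short of T cells, Gimap1 is needed to maintain mature T and B cells, and Gimap3 is the close relative of Gimap5. Acetylated lysines on histones accumulate in nucleosomes at the promoters and enhancers of genes in use, usually flanking the start of transcription, so a peak at a Gimap promoter is a mark of open, active chromatin and not a measure of its transcript.

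The order along the chromosome is Gimap8, Gimap9, Gimap4, Gimap6, Gimap7, Gimap1, Gimap5 and Gimap3, between positions 48647234 and 48770851 of chromosome 6. Gimap6 and Gimap3 are read from the minus strand and the other 6 from the plus strand. Promoter sequence from RefSeq (GRCm38.p6), 250 bases before to 50 after a start, was found for all 8 members. Gimap8 also had a second start, further downstream, and that one is shown. The sequences shown are of the 4 genes with the best-placed peaks in these lists and of Gimap9, the member with none. Capitals mark matches, on either strand, to a STAT-type motif, a TATA box, an SP and KLF motif, or the core of an ETS-type motif, a choice made after the sequences were seen. The letters of each motif are spelled out after the sequences.

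Gimap8 promoter, chr6:48647111-48647410, plus strand: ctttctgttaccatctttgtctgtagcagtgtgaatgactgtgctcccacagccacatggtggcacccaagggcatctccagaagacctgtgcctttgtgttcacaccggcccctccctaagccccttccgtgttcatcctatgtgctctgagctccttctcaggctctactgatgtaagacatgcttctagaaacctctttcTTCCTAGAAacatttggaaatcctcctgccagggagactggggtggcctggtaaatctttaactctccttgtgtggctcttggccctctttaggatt
Gimap6 promoter, chr6:48708195-48708494, minus strand: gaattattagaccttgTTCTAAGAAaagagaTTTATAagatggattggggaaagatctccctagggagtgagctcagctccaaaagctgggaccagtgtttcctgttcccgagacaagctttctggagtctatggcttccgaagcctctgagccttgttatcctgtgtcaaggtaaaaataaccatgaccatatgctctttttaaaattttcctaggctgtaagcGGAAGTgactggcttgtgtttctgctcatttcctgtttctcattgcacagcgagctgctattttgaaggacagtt
Gimap3 promoter, chr6:48770802-48771101, minus strand: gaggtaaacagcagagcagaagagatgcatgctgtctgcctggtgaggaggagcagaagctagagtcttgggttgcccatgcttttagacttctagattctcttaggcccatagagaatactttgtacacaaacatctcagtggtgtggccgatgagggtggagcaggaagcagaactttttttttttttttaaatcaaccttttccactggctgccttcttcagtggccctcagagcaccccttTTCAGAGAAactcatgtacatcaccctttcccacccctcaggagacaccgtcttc
Gimap5 promoter, chr6:48745947-48746246, plus strand: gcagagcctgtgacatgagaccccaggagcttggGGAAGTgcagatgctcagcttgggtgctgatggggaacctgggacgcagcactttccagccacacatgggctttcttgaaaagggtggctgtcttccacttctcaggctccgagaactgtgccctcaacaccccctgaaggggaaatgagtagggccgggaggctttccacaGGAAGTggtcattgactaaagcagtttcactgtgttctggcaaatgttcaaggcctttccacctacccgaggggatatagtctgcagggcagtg
Gimap9 promoter, chr6:48675885-48676184, plus strand: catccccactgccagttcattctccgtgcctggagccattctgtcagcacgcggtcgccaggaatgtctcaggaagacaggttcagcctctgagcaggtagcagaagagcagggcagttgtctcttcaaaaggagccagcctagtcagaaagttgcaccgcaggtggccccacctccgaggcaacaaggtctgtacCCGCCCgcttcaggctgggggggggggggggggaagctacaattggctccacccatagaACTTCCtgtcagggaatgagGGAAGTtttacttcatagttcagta

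TTCNNNGAA, the letters bound by STAT factors, which act downstream of IL-15 among other cytokines, was present in 4 of the 9 Gimap promoters (Gimap3, Gimap6, Gimap7 and Gimap8), and in 8.30% of 32851 RefSeq mouse promoters of the same length. GGAAGT, the ETS core, was present in 4 (Gimap1, Gimap5, Gimap6 and Gimap9), against 23.8% of all promoters, and the longer ETS motif, CCGGAAG, in none, against 8.86%. TGTGGT, the RUNX-type motif, occurred in 3 (Gimap1, Gimap4 and Gimap7), against 16.8%. GGGCGG, for SP and KLF factors, occurred in 2 (Gimap7 and Gimap9), against 35.7%, the TATA box letters TATAAA in 1 (Gimap6), against 13.6%, and CTTTGAA, a TCF and LEF motif, in 1 (Gimap7, where it shares bases with TTCNNNGAA), against 5.14%. The STAT-type match of Gimap8 was at its second start, and the promoter of its first start held none of these motifs. These matches describe letters in a window and do not show binding. CG pairs were sparse in the Gimap promoters, with a median of 4 (range 2 to 8) per 300 bases, beside a median of 7 over all promoters, of which 54.2% had 8 or fewer.

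The 37 peaks gathered at the promoters. Within 1 kb of a Gimap start site lay 32 of them, and after merging of peaks that shared a base they made 10 regions, 7 of which were promoters of Gimap8, Gimap4, Gimap6, Gimap7, Gimap1, Gimap5 and Gimap3. A promoter peak was found at 7 and 6 members in WT replicates 1 and 2, and at 5, 7 and 7 members in TPdh-/- replicates 1, 2 and 3. Over all protein-coding genes the shares with a promoter peak were 39.7% and 22.9% in WT and 14.3%, 15.5% and 26.1% in TPdh-/-. All 5 libraries had a promoter peak at 5 of the 8 members, Gimap8, Gimap6, Gimap1, Gimap5 and Gimap3, beside 10.2% of protein-coding genes. Gimap4 and Gimap7 had one in 3 and 4 libraries, a group that holds 12.3% of protein-coding genes. Gimap9 had none in any library, as did 59.3% of protein-coding genes. No member was marked at its promoter in both WT libraries without any TPdh-/- library, where 2% of genes were, and none in TPdh-/- alone, where 0.666% of genes were. Counting the whole window of body and 10 kb, 8 and 6 members had a peak in WT replicates 1 and 2, and 6, 8 and 8 in TPdh-/- replicates 1, 2 and 3. The shares over all protein-coding genes were 54%, 36.4%, 23.2%, 24.7% and 39.2% in that order. Windows of 6 of the 8 members had a peak in every library, beside 17.1% of genes, and these peaks could belong to a neighbouring member.

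**Figure D1:**
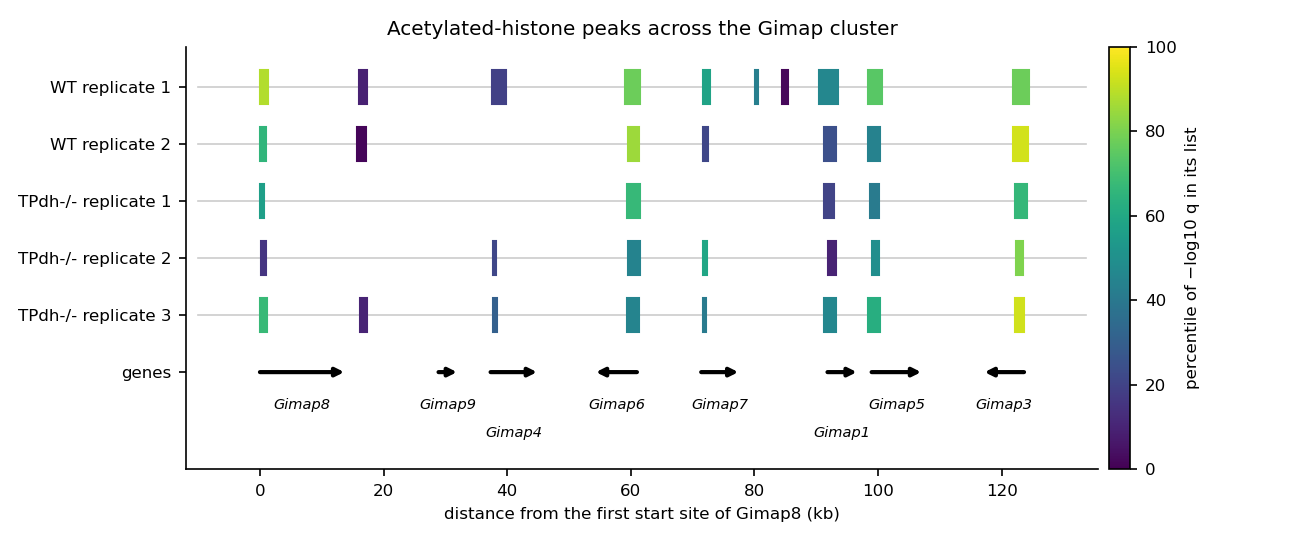
Map of the Gimap cluster, with distance in kb from the first start site of Gimap8 on the horizontal axis, gene bodies as arrows in the direction of transcription, and the peaks of each library as bars coloured by the percentile of their −log10 q in their own list. Peaks stand at the starts of Gimap8, Gimap6, Gimap1, Gimap5 and Gimap3 in all 5 libraries, and no peak lies in the body of Gimap9.

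Gimap3, the close relative of Gimap5, had the peaks that stood highest in their lists. Peaks were ranked by the −log10 q that the authors' peak caller gave them, and the percentile is the share of the same list that a peak matched or exceeded. Its promoter peak stood at the 77.4 and 93.3 percentile in WT and at the 66.5, 80.7 and 92.8 percentile in TPdh-/-. It was the best-ranked peak of the cluster in WT replicate 2 (rank 591 of 8859) and in TPdh-/- replicates 2 and 3 (ranks 1049 of 5419 and 677 of 9418). Its fold enrichment, the signal over the background that the peak caller estimated, was 2.02 and 2.44 in WT and 2.38, 2.43 and 2.46 in TPdh-/-. The peak was 2639 and 2333 bp wide in the WT lists, against 1855, 1193 and 1485 bp for TPdh-/-. The 2 genotypes overlapped in percentile and fold, and did not overlap in width.

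Gimap6, whose product binds proteins of the autophagy machinery, had its promoter peak at the 77.5 and 85.5 percentile in WT and at the 67.1, 44.8 and 45.3 percentile in TPdh-/-. Both WT values thus lay above every TPdh-/- value, which was true of no other Gimap gene with a promoter peak in all libraries, that is of 1 of 5. The same order held for 25.7% of the 2237 genes with a promoter peak in every library, so the share among the Gimap genes was near the background, and the opposite order held for none of the 5, beside 1.43%. Counted over all 8 members, 1 had a higher promoter percentile in both WT lists, beside 8.32% of all genes, and 1 a higher best percentile in its window, beside 13.7%. None was lower in both WT lists by either measure, beside 0.155% and 0.196% of genes. The −log10 q itself was 7.10 and 6.33 in WT and 3.33, 2.59 and 3.16 in TPdh-/-. The fold enrichment was not ordered by genotype, at 1.99 and 2.19 in WT against 2.25, 1.99 and 1.85 in TPdh-/-. The width varied little, from 1881 to 2354 bp over the 5 libraries, and 1771 bp of the Gimap6 promoter were covered in every library, the longest such stretch in the cluster.

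Gimap8 encodes the largest protein of the family, with several GTP-binding domains, and its gene opens the cluster on the left. Its peak stood at the 88.5 and 65.3 percentile in WT and at the 56.0, 15.4 and 67.4 percentile in TPdh-/-. TPdh-/- replicate 3 was above WT replicate 2, so the genotypes overlapped. Its fold enrichment was the highest of any Gimap gene in every library but TPdh-/- replicate 2, at 2.70 and 2.52 in WT and 2.66, 2.31 and 2.65 in TPdh-/-. Its widths were 1252 and 893 bp for WT against 632, 938 and 1026 bp for TPdh-/-, above the median of the list in 3 of the 5 libraries.

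Gimap5, a lysosomal protein that keeps lymphocytes alive, had its promoter peak at the 74.2 and 44.5 percentile in WT and at the 41.1, 48.9 and 62.6 percentile in TPdh-/-. The peak was wider in both WT lists, at 2152 and 1960 bp, than in TPdh-/-, at 1480, 1072 and 1902 bp. The fold enrichment ran the other way, at 2.06 and 1.97 in WT and 2.21, 2.19 and 2.10 in TPdh-/-, with no overlap. For Gimap1, which maintains mature lymphocytes, the percentiles were low and overlapped, at 46.4 and 24.2 in WT and 20.04, 9.58 and 46.4 in TPdh-/-. Its fold enrichment was also lower in both WT lists (1.59 and 1.69) than in TPdh-/- (1.87, 1.77 and 1.80). The peak at Gimap1 was 3000 bp wide in WT replicate 1, the widest in the cluster, and 1961 bp in WT replicate 2, against 1609, 1311 and 1973 bp in TPdh-/-. In every library it also lay within 1 kb of a start of Gimap1os, an antisense transcript, and of Gm28053. Gm28053 is a protein-coding model annotated from the start of Gimap7 into Gimap5 (48718607 to 48752644), with starts at both Gimap7 and Gimap1, so the peaks there cannot be told apart between these genes.

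Gimap4 and Gimap7 had a promoter peak in some libraries and not in others. Gimap4, a T cell protein that quickens apoptosis, had a promoter peak at the 19.2 percentile in WT replicate 1, the 21.4 in TPdh-/- replicate 2 and the 30.3 in TPdh-/- replicate 3, and none in WT replicate 2 or TPdh-/- replicate 1. Its fold enrichment of 1.55, 1.76 and 1.71, in the same order, was among the lowest of the cluster's promoters. The WT peak was 2239 bp wide and the TPdh-/- peaks were 619 and 664 bp. Gimap7, a GTPase active as a dimer, had peaks at the 57.9 and 21.2 percentile in WT and at the 59.3 and 41.0 percentile in TPdh-/- replicates 2 and 3, and none in TPdh-/- replicate 1. These peaks were 1105 and 870 bp wide in WT, against 613 and 603 bp for TPdh-/-, with a fold enrichment of 1.87 and 1.87 against 2.24 and 2.00. The lists do not give the signal where no peak was called. Gimap9, a small and little studied member, had a peak in its 10 kb windows in WT replicate 1 and TPdh-/- replicates 2 and 3, and these were the peaks of Gimap4.

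**Figure D2:**
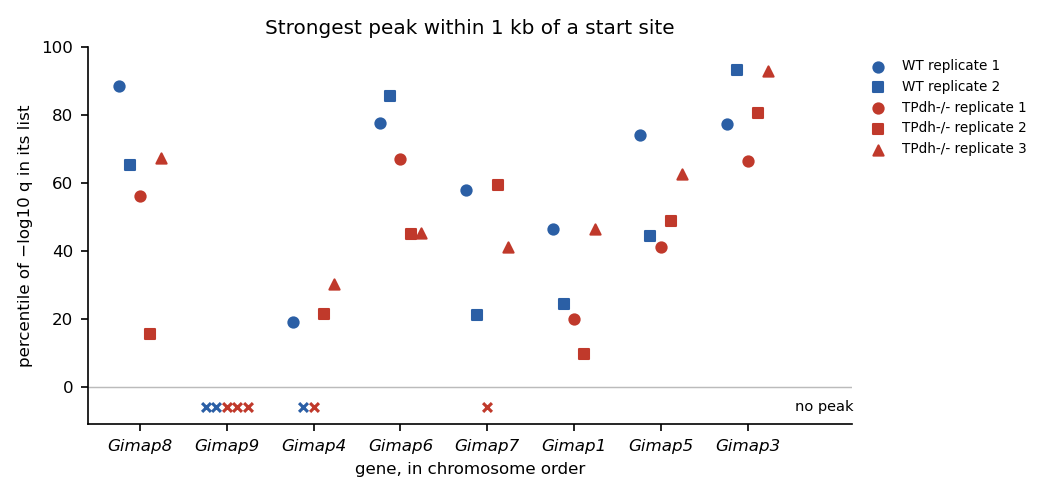
Percentile of each Gimap promoter peak by −log10 q in its own list (vertical axis, percent) for the 8 genes in chromosome order, with 1 point per library (blue WT, red TPdh-/-) and crosses below 0 for libraries without a promoter peak. Gimap3 reaches the 93.3 percentile, Gimap4 stays between 19.2 and 30.3, and the genotypes separate at Gimap6 alone among the genes with 5 peaks.

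Away from the promoters, 3 regions had peaks. The first, of 1654 bp at positions 48662898 to 48664551 between Gimap8 and Gimap9, had a peak in WT replicate 1, WT replicate 2 and TPdh-/- replicate 3, at the 9.23, 1.46 and 10.002 percentile, with a fold enrichment of 1.61, 1.74 and 1.87. The other 2, at 48727282 to 48727844 and 48731768 to 48732633 between Gimap7 and Gimap1, were peaks of WT replicate 1 alone, at the 42.7 and 1.85 percentile. No region of the cluster was marked in the WT libraries together without a TPdh-/- library. The first region was the only stretch outside the promoters with a peak in more than 1 library. The middle 200 bases of the part of it covered in all 3 of its libraries follow in GRCm38.

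Peak between Gimap8 and Gimap9, chr6:48663812-48664011, plus strand: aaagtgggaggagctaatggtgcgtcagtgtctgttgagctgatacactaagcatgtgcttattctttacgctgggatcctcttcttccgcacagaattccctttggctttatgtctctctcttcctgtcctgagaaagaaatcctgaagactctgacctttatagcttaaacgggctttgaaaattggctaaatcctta

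The Gimap promoter peaks were broad and low, with midpoints downstream of the first annotated start. The midpoint lay downstream of the gene's first annotated start site in 32 of 32, beside 68.4% of the 26003 promoter peaks of protein-coding genes in the 5 lists together. Peaks qualified near any start of a gene, so those at later starts fall downstream of the first by the measure itself. The members have from 2 to 6 start sites, and the 26003 peaks were not matched for this number. The offset of the midpoint ran from 127.5 to 764 bp for Gimap1, from 391.5 to 665.5 bp for Gimap8, from 487 to 679.5 bp for Gimap6 and from 638 to 1382 bp for Gimap4. All peaks of Gimap8 (5), Gimap4 (3) and Gimap7 (4) began past that first start, as did 4 of the peaks of Gimap1, Gimap5 and Gimap3. In all this held for 16 of 32, beside 29.8% of the 26003. Gimap6 alone had every one of its promoter peaks across the first start site. Counting any annotated start of the gene, every promoter peak of Gimap8 and of Gimap5 also lay across one. Of the 32 peaks, 24 were wider than the median of their list (51.3% of the 26003), 29 had a fold enrichment below it (26.6%) and 22 had both (17.1%). The peaks that were not wide were those of Gimap7 and some of Gimap8 and Gimap4, and the 3 with a fold enrichment above the median were all at Gimap8. These 32 peaks come from 7 promoters and are not independent of each other, so the counts are descriptions.

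**Figure D3:**
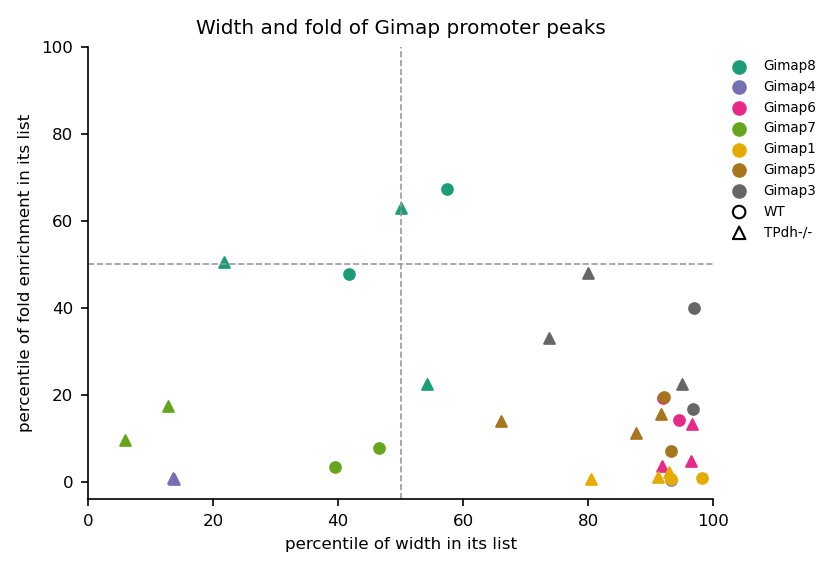
Width (horizontal axis) and fold enrichment (vertical axis) of each Gimap promoter peak as percentiles of its own list, coloured by gene, with circles for WT and triangles for TPdh-/- and dashed lines at the list medians. Of 32 peaks, 22 lie in the lower right, wider and of lower fold enrichment than the median.

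**Figure D4:**
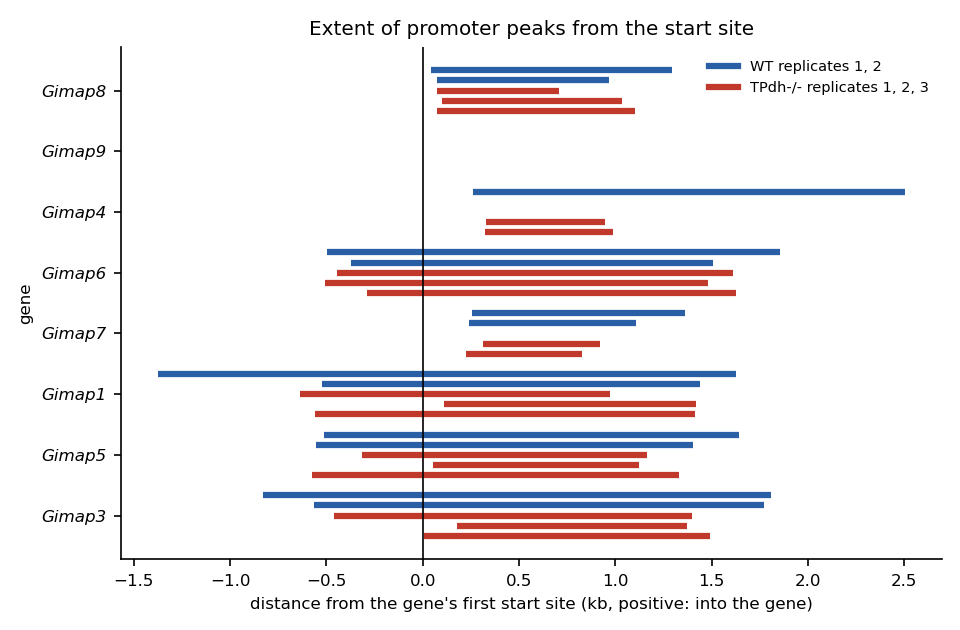
Extent of each Gimap promoter peak in kb from the gene's first start site, with positive values in the direction of transcription, 1 bar per library (blue WT, red TPdh-/-) and genes in chromosome order. All 32 bars have their midpoint to the right of 0, and those of Gimap8, Gimap4 and Gimap7 lie wholly beyond it.

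By strength, the Gimap promoter peaks ranked near or below those of other genes in 4 of the 5 lists. The median percentile over members with a promoter peak was 74.2 and 54.9 in WT and 56.0, 44.8 and 46.4 in TPdh-/-. Over all protein-coding genes with a promoter peak it was 67.6 and 63.8 in WT and 62.1, 64.1 and 64.6 in TPdh-/-, so the Gimap genes were above it in WT replicate 1 only.

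Peaks stood more densely in the cluster than in the windows of protein-coding genes at large. The windows of the 8 genes join into 143618 bp and held 6.96 and 4.87 peaks per 100 kb in WT and 3.48, 4.87 and 5.57 in TPdh-/-. The joined windows of all protein-coding genes held 1.02 and 0.550 in WT and 0.309, 0.334 and 0.600 in TPdh-/-. These densities were not adjusted for the number of start sites per kb, and 32 of the 37 Gimap peaks lay within 1 kb of a Gimap start site. Close neighbours were also marked: AI854703, the first protein-coding gene to the left, had a peak at or near its start in 4 libraries, and a region from 20157 to 20738 bp beyond the right edge of the windows, closest to the start of the lincRNA gene Gm30781, had a peak in all 5. A nearer region, from 3511 to 3539 bp beyond that edge, had a peak in WT replicate 1 (11.2 percentile) and WT replicate 2 (19.9 percentile), with none called there for TPdh-/-. The share of all regions in the lists with this pattern is not given here, so it cannot be read as particular to this place. Tmem176b, the first protein-coding gene to the right, lies 52967 bp from the windows.

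Between the genotypes, Gimap peaks covered more of the cluster in WT, while the number of Gimap promoters marked was alike in range. Peaks covered 17.4 and 11.4 kb of the windows in WT and 7.63, 7.73 and 10.7 kb in TPdh-/-, with no overlap between the genotypes. The whole lists covered 20.2 and 9.89 Mb in WT and 4.85, 5.52 and 10.9 Mb in TPdh-/-, so covered length was not particular to the cluster in being larger on average in WT. Over the whole lists TPdh-/- replicate 3 exceeded WT replicate 2. The means for the windows were 14.4 ± 4.27 kb (SD, n = 2) and 8.68 ± 1.73 kb (SD, n = 3). Their difference was 5.72 kb (exact permutation test, two-sided, p = 0.2, and 0.5 after Benjamini-Hochberg adjustment over 5 comparisons). With 2 libraries against 3 there are 10 splits and 0.2 is the smallest p they can give, so no comparison of the genotypes could pass 0.05. The difference was 2.70 kb without WT replicate 1, and 1.14 kb when every list was shortened to the length of the shortest, 4920 peaks. The genotypes overlapped in covered length with these shortened lists (exact permutation test, two-sided, p = 0.6), over gene bodies alone, where the difference was 2.65 kb (p = 0.4), and among peaks with a −log10 q of 2 or more, where it was 5.35 kb (p = 0.4). Acetylation in fewer cells, less acetylation per cell and technical differences such as read depth cannot be told apart in these bulk libraries.

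The number of Gimap peaks was 10 and 7 in WT and 5, 7 and 8 in TPdh-/-, which overlapped, with means of 8.5 ± 2.12 (SD, n = 2) and 6.67 ± 1.53 (SD, n = 3) (exact permutation test, two-sided, p = 0.6, adjusted p = 0.75). The difference of 1.83 turned to -1 with lists of equal length. Among peaks with a −log10 q of 5 or more the numbers were 4 and 2 in WT and 0, 0 and 1 in TPdh-/-, without overlap. That difference was 2.67 (exact permutation test, two-sided, p = 0.2). The number of members with a promoter peak averaged 6.5 ± 0.707 for WT (SD, n = 2) and 6.33 ± 1.155 for TPdh-/- (SD, n = 3) (exact permutation test, two-sided, p = 1, adjusted p = 1). Its difference of 0.167 turned to -1 with lists of equal length and to -0.333 without WT replicate 1. The percentile of the strongest peak in each member's window, averaged over the 8 members, was 63.5 and 44.3 in WT and 42.4, 42.6 and 54.0 in TPdh-/-. Its difference of 7.56 was smaller than the spread between the WT libraries (exact permutation test, two-sided, p = 0.4, adjusted p = 0.667), and it turned to -2.03 without WT replicate 1 and to -10.4 with lists of equal length. Relative to the length of the lists, the Gimap cluster held fewer peaks in WT, at 0.626 and 0.790 per 1000 peaks, than in TPdh-/-, at 1.02, 1.29 and 0.849, again without overlap (difference -0.344, exact permutation test, two-sided, p = 0.2, adjusted p = 0.5). With lists of equal length the genotypes overlapped (difference -0.203, exact permutation test, two-sided, p = 0.8). The direction turned, to 0.662, when peaks under a −log10 q of 5 were left out. The WT lists were on average longer, and the part of list length in these differences was not tested beyond the lists of equal length.

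**Figure D5:**
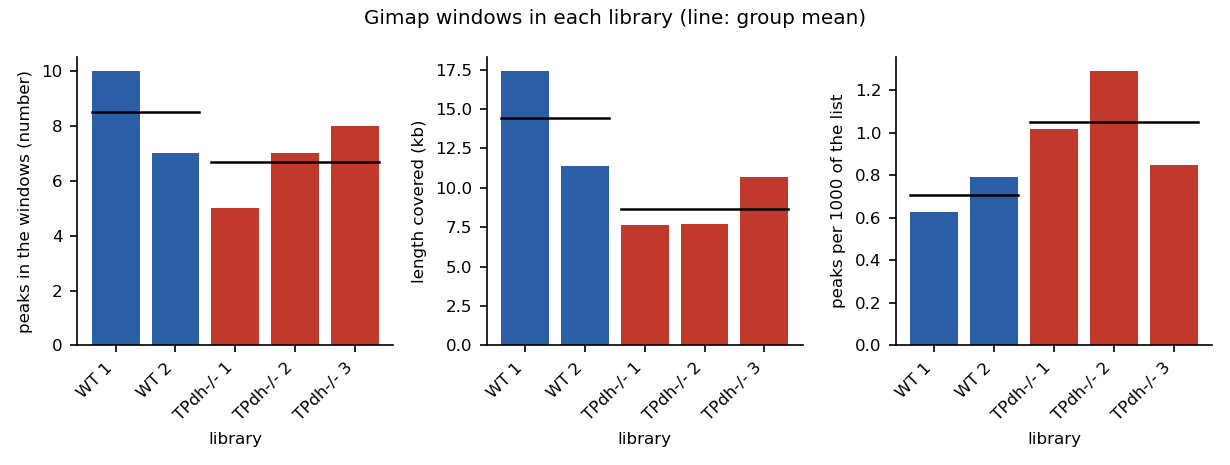
Number of peaks in the Gimap windows, kb covered by them and peaks per 1000 of the list for each library, as bars from 0 (blue WT, red TPdh-/-) with a line at each group mean. Covered length is highest in both WT libraries (17.4 and 11.4 kb), whereas peaks per 1000 of the list are highest in the 3 TPdh-/- libraries (0.849 to 1.29).

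The 5 Gimap promoters marked in every library held part of the difference in covered length. Their summed width was 11397 and 9028 bp in the WT lists, against 7632, 6501 and 8303 bp for TPdh-/-. The median promoter peak of the 2237 genes marked in every library was 1450 and 1156 bp wide in the WT lists, against 908, 979 and 1231 bp for TPdh-/-, where TPdh-/- replicate 3 exceeded WT replicate 2. Both WT peaks were wider than every TPdh-/- peak at 2 of the 5 Gimap promoters, Gimap3 and Gimap5, beside 31.1% of the 2237 genes, and narrower at none, beside 0.268%. The fold enrichment was lower in both WT lists at 2 of 5, Gimap1 and Gimap5, beside 7.87%, and higher in both at none, beside 16.5%. Gimap5 alone of the 5 had peaks both wider and of lower fold enrichment in WT, beside 3.4% of the 2237 genes.

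Other genes of T cell survival were counted by the same measure. Of 20 genes for survival factors, cytokine receptors and their signalling, 17 and 11 had a promoter peak in WT and 9, 8 and 16 in TPdh-/-. All 5 libraries marked 5 of them (Bcl2, Il15ra, Bak1, Bad and Il2rg), and no library marked 3 (Foxo1, Klf2 and Il7r). Bad, a promoter of apoptosis, stood highest with a mean percentile of 91.6. Of 10 NK-type lectin receptor genes, which like the Gimap genes lie as neighbours on chromosome 6 for the most part, 3 and 1 had a promoter peak in WT and 1, 2 and 2 in TPdh-/-, and 7 had none in any library. The 5 protein-coding genes whose strongest peak followed the mean of the Gimap genes most closely over the 5 libraries were Gm973 (mean absolute difference of 3.52 percentile points), Rnf186 and Tmco4 (3.94 each, from shared peaks), Nmnat2 (4.19) and Dennd4b (4.59).

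Related copies within the family bear on which reads could be placed, since only reads that mapped uniquely were kept. Of all 51-base stretches in the windows, the length of the reads, 94.8% occurred once in the genome. The share was lowest in the bodies of Gimap5 (93.3%) and Gimap3 (93.9%), with 95.4% for Gimap1, 97.1% for Gimap8 and from 99.3% to 100% for the others. Gimap3 shared 2.89% of its stretches with Gimap5, and Gimap5 shared 2.30% of its own with Gimap3. Within the marked regions the share of unique stretches was 98.1% at the Gimap3 promoter, 99.2% at the Gimap1 promoter and 100% at the others. Every such stretch in the body of Gimap9, which held no peak, was unique (100%), and the bases before its start were not counted apart.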

How the data were processed

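ChIPseq peak lists of 5 libraries were used, 2 WT and 3 TPdh-/-, grouped by their labels. Reads of 51 bases, at least 37000000 per library by the labels, were aligned by the authors to GRCm38/mm10 with BWA 0.7.17, kept where unique and outside blacklisted regions with SAMtools 1.15.1, and broad peaks were called per library with MACS2 2.2.6. No input control is named in the sources used here. The deposited lists give a fold enrichment (a linear ratio over the estimated background), each peak's −log10 p and −log10 q from the authors' caller, and a score, which was not used. The lists hold no read counts, which leaves the depth behind a peak unknown, and no counting interval is given.

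The lists' 0-based starts were changed to 1-based. Genes came from the GENCODE M21 annotation (GRCm38), and neighbours outside the windows are named from it. A peak counted with an overlap of at least 1 bp with the gene body and 10 kb on each side, and as a promoter peak within 1 kb of any start site of the gene. Where several peaks qualified, the strongest by −log10 q was used. Python 3.11.15, numpy 2.4.6, pandas 2.3.3, scipy 1.17.1 and matplotlib 3.10.9 were used. Genotypes were set against each other with exact permutation tests on the 10 splits (two-sided p double the smaller one-sided p), and p-values measure only the spread between these libraries, which may be technical. The code was tested on simulated lists. Named were all 8 members, neighbours, the 5 genes most alike, and the highest and unmarked genes of the survival list. Members, lists and tests were chosen with earlier results of these data known, and the direction of peaks relative to the start, their width and the GGAAGT motif were chosen after seeing the peaks. Alternatives were stricter −log10 q, lists of equal length, other windows, overlaps and widths, leaving out each library, and the replicate number as a block.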

Additional observations from a re-analysis of the deposited data

How the results depend on the processing

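With a −log10 q of at least 2, regions marked in every library were 3 and those of WT alone 1, in place of 5 and 2. With at least 5, the WT minus TPdh-/- difference in members with a promoter peak was 2.67, that in mean best percentile 20.4 and that in peaks per 1000 of the list 0.662. Then 4 regions remained, 0 of them in every library, 3 of WT alone and 0 of TPdh-/- alone. With lists of equal length the differences were -1 in peak number, 1.14 kb in covered length, -1 in members with a promoter peak and -10.4 in mean best percentile, with 3 regions in every library, 0 of WT alone and 3 of TPdh-/- alone. The difference in covered length was 2.65 kb over gene bodies alone. That in members with a promoter peak was -0.333 when the midpoint, or 50% of the peak, had to lie within 1 kb, and that in peaks per 1000 was -0.754 for peaks at least 1000 bp wide. Leaving out each library gave from 2.70 to 8.74 kb covered, from -2.03 to 17.1 in mean best percentile, from -0.5 to 0.667 in members with a promoter peak (-0.333 without WT replicate 1 and -0.5 without TPdh-/- replicate 1), from 0.333 to 3.33 in peak number and from -0.446 to -0.225 in peaks per 1000. It gave from 8 to 10 regions, from 5 to 6 in every library, from 0 to 3 of WT alone (0 without WT replicate 1) and from 0 to 1 of TPdh-/- alone. The causes were not tested. With the replicate number as a block (TPdh-/- replicate 3 left out) the differences were 2.5 in peak number, 6.72 kb, 0.5 members, 11.4 in percentile and -0.446 per 1000. The block changed no direction. Numbers are not stated to pair libraries. For 3761 genes, each library's deviation from its genotype mean in the percentile of the strongest peak was taken. These deviations correlated at -0.0654 and 0.0477 between same-numbered libraries. With 2 WT libraries the WT deviations are exact opposites, so this check can say little about pairing. Gimap promoter peaks had their midpoint downstream of the first start site in 100% under every alternative run. That share could hardly change, since promoters within 3 kb gave 32 peaks as before and the other alternatives only left peaks out. It is therefore no check of the result. The wide peaks of low fold were from 66.7% to 85.7%. Of the alternatives to the differences and region counts, 86 were counted as the same, 17 as moved and 9 as changed in direction. A difference counted as the same if it kept its direction and moved by less than the pooled SD of the libraries. For region counts the larger could exceed the smaller by up to 50%. Values counted as the same could thus differ, as 0.333 without WT replicate 1 against 1.83 in peak number. With 2 and 3 libraries and no read counts, no genotype difference could pass 0.05.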
